A study of Mus musculus with 2 samples.

Results

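The cytochrome P450 genes outside steroid hormone synthesis were examined in the adrenal glands of newborn mice. They were chosen by gene symbol: protein-coding genes named Cyp, a number, a letter and a number, leaving out the 6 steroidogenic genes Cyp11a1, Cyp11b1, Cyp11b2, Cyp17a1, Cyp19a1 and Cyp21a1. Of 93 genes named in this way 87 were kept, out of 43346 Ensembl genes in the tables. Total RNA was sequenced from strain B6NCrl pups at postnatal day 0, and each of the 2 libraries (pup 2 and pup 1) came from both adrenals of 1 pup. Both pups carry 1 shared number for the pregnant animal in the labels, which name no treatment and no altered allele. The pups form 1 group, so levels are given per pup or as mean ± SD (n = 2), and a ratio of pup 2 over pup 1 stands without a replicate check or a p-value.

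Cytochrome P450s are haem enzymes that insert an oxygen atom into their substrates, using electrons from a reductase in the endoplasmic reticulum or from ferredoxin in mitochondria. Families 1 to 3 oxidise drugs, pollutants and many lipids, and family 4 mainly attacks the ends of fatty acids and eicosanoids. Smaller families turn cholesterol into oxysterols and bile acids, activate or clear vitamin D, or clear retinoic acid. The liver is the main organ of the drug-oxidising families, and the adrenal cortex is best known for the steroidogenic enzymes that were left out here. Several of the genes that were kept, such as Cyp7b1, Cyp27a1 and Cyp39a1, also act on sterols, so the group is defined by its symbols and not by substrate.

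Depth was close, at 40799478 estimated counts for pup 2 and 41504343 for pup 1. The labelled tissue was plain in both, since all 6 marker genes of the adrenal cortex reached 1 TPM (a level per transcript length, scaled to the library). They summed to 12168 TPM in pup 2 against 4905 TPM in pup 1, and the 5 chromaffin cell genes to 3469 and 1432 TPM. Markers of other organs were present as well. The 8 hepatocyte genes summed to 2266 TPM in pup 2 against 2940 TPM in pup 1, and each reached 1 TPM in both pups. The 5 lung epithelium genes summed to 80.0 TPM in pup 2 against 46.4 TPM in pup 1, and each again reached 1 TPM in both pups. Other markers set the libraries apart. Of the 7 gut genes 2 reached 1 TPM in pup 2 and 6 in pup 1, and they summed to 130 and 228 TPM in pup 2 and pup 1. Most of these sums came from 1 gene, Fabp1 (127 TPM in pup 2, 177 TPM in pup 1). The next highest gut gene, Fabp2, stood at 2.47 TPM in pup 2 against 25.2 TPM in pup 1. The gut sums therefore say little beyond the level of Fabp1. Of the 10 kidney tubule genes 3 reached it in pup 2 (Cdh16, Aqp2 and Pax2) and 1 in pup 1 (Kap). The 3 skeletal muscle genes summed to 225 TPM in pup 2 against 55.8 TPM in pup 1. The 3 adipocyte genes summed to 854 TPM in pup 2 against 671 TPM in pup 1. Most of this was Fabp4 (824 and 667 TPM), while Adipoq stood at 14.9 and 0.10 TPM in pup 2 and pup 1. In whole tissue, fewer cells of a type and less RNA per cell cannot be told apart.

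Most of the 87 genes were low or silent. At least 1 TPM in both pups was reached by 34 of them, or 39.1%, against 60.4% of 21461 nuclear protein-coding genes. A further 4 reached it only in pup 2 (Cyp4f14, Cyp2c37, Cyp26b1 and Cyp2c70) and 3 only in pup 1 (Cyp4f15, Cyp2a12 and Cyp4x1). The remaining 46 stayed below it in both, and 14 of these had no count in either library. A count of 0 still allows up to 3 counts, or 0.0735 CPM in pup 2 and 0.0723 CPM in pup 1, and this covers counting error only. The 87 genes summed to 324 TPM in pup 2 against 277 TPM in pup 1, or 301 ± 33.04 TPM (SD, n = 2). The 6 steroidogenic P450s summed to 10520 TPM in pup 2 against 3344 TPM in pup 1. The 87 genes therefore held 2.99% of the TPM of these 93 genes in pup 2 and 7.66% in pup 1. P450s outside the symbol rule are not in this total.

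No single gene dominated the group. The highest level was 28.8 TPM in pup 2 (Cyp4b1) and 18.7 TPM in pup 1 (Cyp4a14), and 10 genes stood at 10 TPM or more in both pups. The 10 highest genes of each pup held 59.8% of the group's TPM in pup 2 and 53.4% in pup 1. The highest gene by mean, Cyp4b1, ranked 4619 among nuclear protein-coding genes. Among the 34 genes detected in both pups the median was 6.39 TPM in pup 2 against 6.09 TPM in pup 1, below the 14.9 and 11.3 TPM of all detected protein-coding genes in pup 2 and pup 1.

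**Figure D1:**
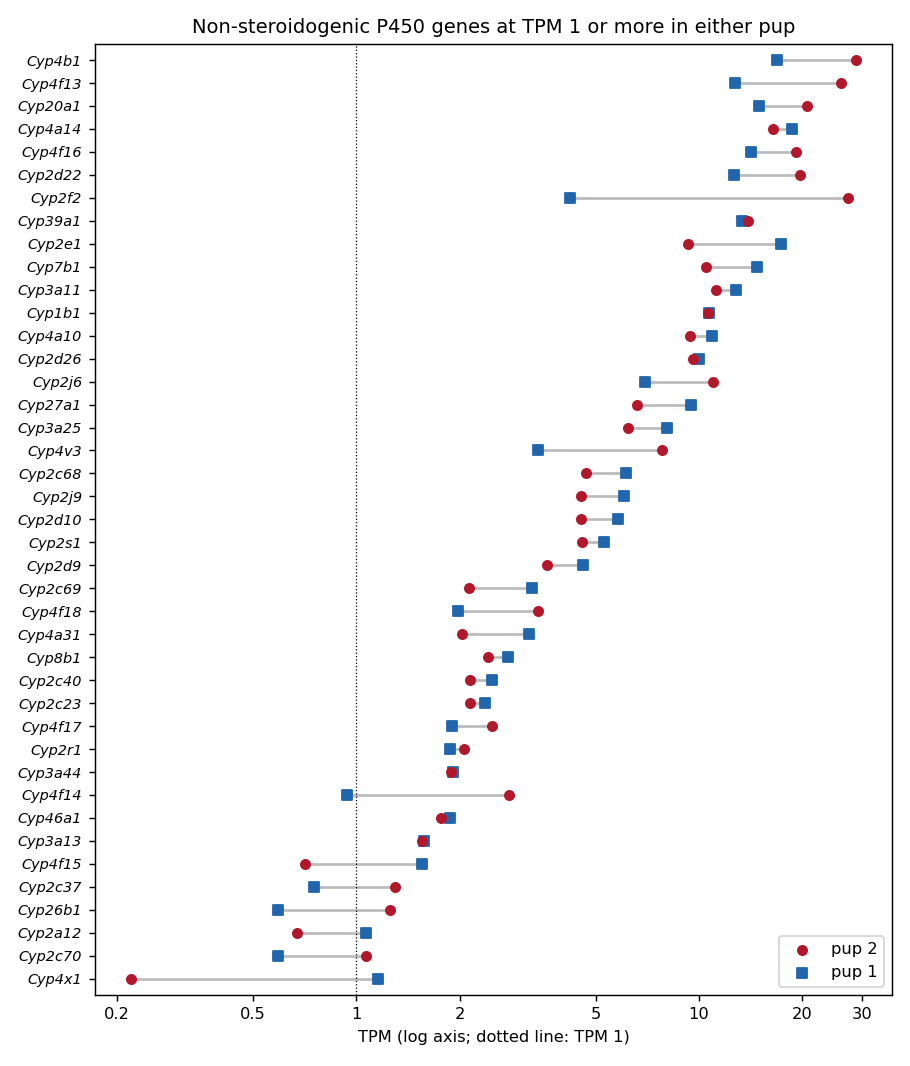
Level of each P450 gene that reached 1 TPM in either pup, on a log axis in TPM, with pup 2 as circles and pup 1 as squares, ordered by the mean. Cyp4b1 and Cyp4f13 lead, and Cyp2f2 (27.2 TPM in pup 2, 4.19 TPM in pup 1) and Cyp4x1 (0.22 and 1.16 TPM in pup 2 and pup 1) have some of the widest gaps.

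By family, the levels were carried by families 2 and 4. The 48 genes of family 2 summed to 114 TPM in pup 2 against 94.5 TPM in pup 1, with 14 genes detected in both pups. The 17 genes of family 4 summed to 120 TPM in pup 2 against 88.0 TPM in pup 1, with 9 detected. Family 3 (7 genes) followed with 22.1 TPM in pup 2 against 25.3 TPM in pup 1. The means of families 2 and 4, 104 ± 13.7 and 104 ± 22.4 TPM (SD, n = 2), differed by less than the spread between the pups. The single gene of family 20, Cyp20a1, reached 17.8 ± 4.06 TPM (SD, n = 2), by mean more than families 1, 7, 8, 24, 26, 27, 39 or 46 in sum. In pup 1 alone family 7 stood slightly above it (15.25 against 14.94 TPM).

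Levels were also summed by the organ in which each enzyme is usually found, from textbook knowledge that gave an organ class to 63 genes and none to 24. The 32 liver enzymes summed to 104 TPM in pup 2 against 123 TPM in pup 1, or 32.2% and 44.2% of the group's TPM in pup 2 and pup 1. Of these 32, 13 were detected in both pups. The 8 enzymes found in several organs summed to 79.3 TPM in pup 2 against 64.7 TPM in pup 1, and 7 of the 8 were detected. The 2 lung enzymes summed to 55.9 TPM in pup 2 against 21.1 TPM in pup 1. A place in the lung class does not mean that an enzyme is absent from other organs. Enzymes usual in kidney (5 genes), gut (4 genes), skin (2 genes) and nose (1 gene) summed to under 2 TPM per class in each pup. The highest of them were Cyp3a13 of the gut (1.55 TPM in pup 2, 1.58 TPM in pup 1), Cyp2j5 of the kidney (0.77 and 0.85 TPM) and Cyp4f39 of the skin (0.08 and 0.25 TPM), while Cyp2g1 of the olfactory mucosa had no count.

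**Figure D2:**
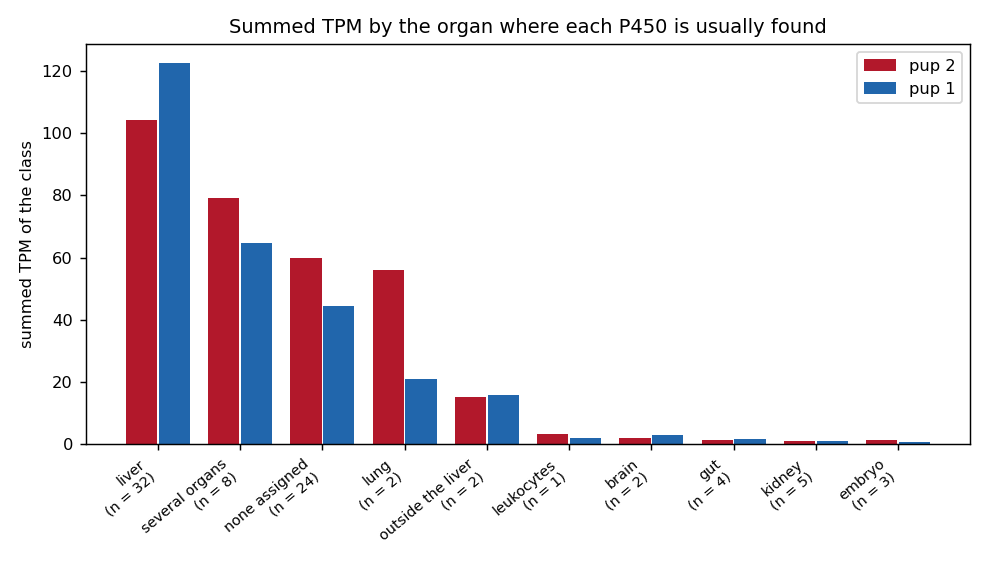
Summed TPM of the P450 genes by usual organ, with pup 2 (left bar) and pup 1 (right bar) of each class and the number of genes in brackets; classes under 1 TPM in both pups are not drawn. The liver class is the highest in both pups (104 and 123 TPM in pup 2 and pup 1), and the lung class is higher in pup 2 (55.9 and 21.1 TPM).

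For ratios between the pups, estimated counts were scaled by TMM, a method that sets the bulk of genes level between libraries. Of the 87 genes, 53 had a mean count of at least 10. Of these 53, 11 (20.8%) lay over 2-fold apart, where 15.8% of all 18670 genes with that count did. Higher in pup 2 were 3 (5.66%; all genes 6.03%) and lower were 8 (15.1%; all genes 9.77%). By sign alone 35 of 53 (66.0%) were lower in pup 2, where 49.9% of all genes were, and their median log2 ratio was -0.46 against 0.00 (0.00157) for all genes. TPM gave higher ratios than scaled counts, by 0.39 in log2 units for the median gene. By TPM, 12 of the 53 lay over 2-fold apart, 7 of them higher and 5 lower in pup 2, and the members' median was -0.08. The share of all genes was not computed by TPM, so this split has no background to be read against. Scaling by spike-in counts shifted every log2 ratio by 2.57 and made 52 of the 53 higher in pup 2, so all directions here are relative to the bulk of genes.

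**Figure D3:**
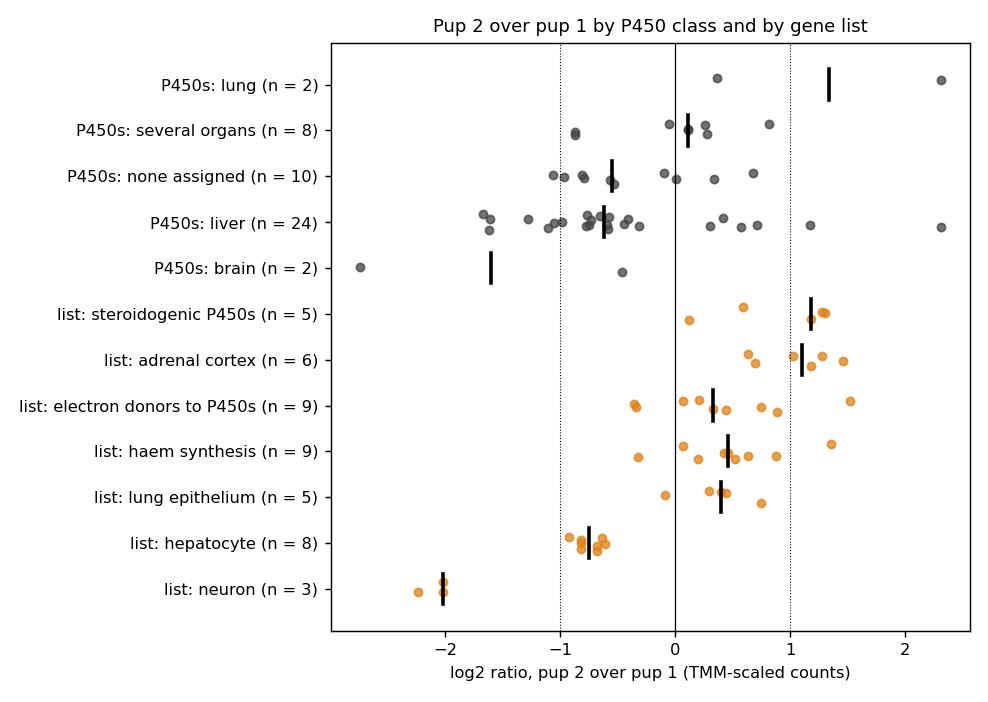
Log2 ratio of pup 2 over pup 1 by TMM-scaled counts for each P450 gene with a mean count of at least 10 in 5 usual-organ classes (grey), and for genes of marker and pathway lists (orange), with the median as a bar and dotted lines at a 2-fold difference. The liver P450s (median -0.62, range -1.67 to 2.32) spread wider than the hepatocyte genes (median -0.75, range -0.92 to -0.61). P450s with no organ assigned have a median of -0.55, and Cyp2f2 (2.31) lies beyond every gene of the lung and cortex lists. By spike-in scaling all points shift by 2.57 to the right.

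Of the P450s known from lung, Cyp4b1 was high in both pups and Cyp2f2 in pup 2 only, since 21 of the other P450 genes stood above it in pup 1. Cyp4b1 (ENSMUSG00000028713.13, mm10 chromosome 4, 115624725 to 115647723, minus strand), which oxidises fatty acids and foreign compounds, stood at 28.8 TPM in pup 2 against 16.9 TPM in pup 1. Its log2 ratio by scaled counts was 0.36, with a 95% counting interval of 0.25 to 0.47. Cyp2f2 (ENSMUSG00000052974.7, chromosome 7, 27119909 to 27133660, plus strand), whose enzyme activates naphthalene in the airways, stood at 27.2 TPM in pup 2 against 4.19 TPM in pup 1. Its 1573 counts in pup 2 and 298 in pup 1 gave a log2 ratio of 2.31 (interval 2.14 to 2.50), a 4.98-fold difference. Counting error is thus small beside this difference, but with 1 library per pup its spread over animals is unknown.

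Lung epithelium genes differed less between the pups than Cyp2f2. Of the 5 lung genes 4 were higher in pup 2. Their log2 ratios had a median of 0.40 and a range of -0.09 to 0.75. Sftpc, the gene of surfactant protein C, had 51.9 TPM in pup 2 against 30.02 TPM in pup 1, and Scgb1a1, the club cell secretoglobin, had 18.1 and 11.3 TPM. All 6 cortex genes were higher in pup 2. Their median was 1.11 and their range 0.63 to 1.46. The ratio of Cyp2f2 lay above the range of both lists, whereas that of Cyp4b1 lay inside the lung range and below the cortex range. The 8 hepatocyte genes were all lower in pup 2, between -0.92 and -0.61, opposite to Cyp2f2 and Cyp4b1. Some markers of other tissues were also higher in pup 2 to a similar or greater extent. The log2 ratio was 6.65 for Adipoq of fat cells and 2.01 for Tnnt3 of skeletal muscle. For Pax2 and Cdh16 of the kidney it was 3.36 and 2.10. Kidney and fat cell genes were not alike, however. Of 8 kidney tubule genes with enough counts, 3 were higher and 5 lower in pup 2 (median -0.67). Of the 3 adipocyte genes 2 were higher and 1, Fabp4, was slightly lower (-0.06). All 3 skeletal muscle genes were higher. The part of RNA from lung or from these tissues in the P450 levels was not tested.

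The promoters of both lung enzymes and of the liver enzyme Cyp2e1 are shown because Cyp4b1 was the highest gene by mean and, among genes with a mean of at least 10 TPM, Cyp2f2 had the highest and Cyp2e1 the lowest ratio. Each runs from 250 bases before to 50 bases after the RefSeq start on GRCm38.p6, for Cyp2f2 at chr7:27119705-27120004 (plus strand), Cyp4b1 at chr4:115647672-115647971 (minus strand) and Cyp2e1 at chr7:140763569-140763868 (plus strand). Capitals mark matches to 3 motifs searched on both strands: AGGTCA, the core bound by many nuclear receptors, GCGTG, the core bound by the aryl hydrocarbon receptor, and TATAAA, the TATA box. No window held more than 1 match.
Cyp2f2: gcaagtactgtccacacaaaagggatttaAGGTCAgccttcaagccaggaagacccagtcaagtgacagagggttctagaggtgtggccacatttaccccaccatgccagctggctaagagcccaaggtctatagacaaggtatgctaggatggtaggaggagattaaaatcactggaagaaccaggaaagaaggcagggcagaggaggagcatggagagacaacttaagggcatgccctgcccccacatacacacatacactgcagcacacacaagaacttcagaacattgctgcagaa
Cyp4b1: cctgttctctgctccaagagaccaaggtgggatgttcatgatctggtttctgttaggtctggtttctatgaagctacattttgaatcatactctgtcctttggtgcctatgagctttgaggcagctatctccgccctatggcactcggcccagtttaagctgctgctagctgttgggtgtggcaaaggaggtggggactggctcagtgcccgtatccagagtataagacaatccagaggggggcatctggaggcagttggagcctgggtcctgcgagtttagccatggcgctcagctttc
Cyp2e1: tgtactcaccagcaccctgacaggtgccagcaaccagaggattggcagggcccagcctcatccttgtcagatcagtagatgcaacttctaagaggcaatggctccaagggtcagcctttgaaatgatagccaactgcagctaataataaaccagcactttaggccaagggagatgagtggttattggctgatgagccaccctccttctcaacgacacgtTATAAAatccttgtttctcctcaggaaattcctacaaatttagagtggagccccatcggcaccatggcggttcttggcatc
The Cyp2f2 window held AGGTCA once, starting at base 30 counted from its 5′ end, and the Cyp2e1 window held TATAAA once, starting at base 220. The Cyp4b1 window held none of the 3 motifs, which says only that these letters are not in this window. Of the 87 genes 70 had a promoter in the RefSeq table. AGGTCA was in 19 of the 70 (27.1%) and in 16.0% of 27025 promoters of all genes. TATAAA was in 29 of the 70 (41.4%) and in 14.2% of all, and GCGTG in 15 of the 70 (21.4%) and in 32.5% of all. Among the 26 promoters of genes detected in both pups, 4 held AGGTCA, 9 held TATAAA and 8 held GCGTG.

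The P450s of the liver were lower in pup 2 as a group, as were the hepatocyte genes. Of 24 liver P450s with a mean count of at least 10, 18 (75%) were lower and 6 higher in pup 2 (median log2 ratio -0.62), where 49.9% of all genes were lower. All 8 hepatocyte genes were lower in pup 2, between -0.92 and -0.61, with a median of -0.75. The highest of them, the transferrin gene Trf, stood at 566 TPM in pup 2 against 705 TPM in pup 1. Of the 29 P450s outside the liver class, 17 were lower and 12 higher, with a median of -0.34. They were not alike. Of the 10 with no organ assigned 7 were lower and 3 higher (median -0.55, near that of the liver P450s). Of the 8 found in several organs 3 were lower and 5 higher (0.11). Other lists were lower in pup 2 as well: all 4 fibroblast genes (median -0.55), all 7 gut genes (-4.68), all 5 skin genes (-1.76) and all 3 neuron genes (-2.02). Of the gut genes, Fabp1 (-0.87) and Vil1 (-0.73) lay inside the hepatocyte range, and the others lay below it. The part of RNA from liver or from these other cells in the P450 levels was not tested.

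This class was led by fatty acid hydroxylases of family 4, drug-oxidising enzymes of families 2 and 3, and the sterol enzyme Cyp39a1. Cyp2e1 (ENSMUSG00000025479.8, chromosome 7, 140763739 to 140774987), the ethanol-oxidising enzyme, stood at 9.30 TPM in pup 2 against 17.3 TPM in pup 1. Its log2 ratio was -1.28 (interval -1.43 to -1.13), the lowest among liver P450s with a mean count of at least 100. Cyp3a11, the main drug-oxidising enzyme of mouse liver and a target of the receptor PXR, stood at 11.2 TPM in pup 2 against 12.9 TPM in pup 1 (log2 ratio -0.58). Its neighbour Cyp3a25 stood at 6.20 and 8.04 TPM in pup 2 and pup 1 (-0.77). Cyp2d26 had 9.60 TPM in pup 2 against 10.0 TPM in pup 1 (-0.45), and Cyp2c68 had 4.67 and 6.14 TPM (-0.78). Cyp4a14 (ENSMUSG00000028715.2, chromosome 4, 115486200 to 115496142), an omega-hydroxylase of fatty acids switched on by PPARA, was the highest liver P450 with 16.4 TPM in pup 2 against 18.7 TPM in pup 1 (-0.65). Cyp4a10, of the same subfamily and control, had 9.41 TPM in pup 2 against 10.9 TPM in pup 1 (-0.60). Cyp2e1, Cyp3a11, Cyp3a25, Cyp2d26, Cyp2c68, Cyp4a14 and Cyp4a10 were each lower in pup 2 both by TPM and by scaled counts. Only the ratio of Cyp2e1 by scaled counts passed 2-fold among them, and by TPM none did.

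Other textbook liver P450s were nearly absent. Chosen for its values, Cyp1a2, the caffeine-oxidising enzyme, had 8 counts in pup 2 and 24 in pup 1 (0.13 and 0.33 TPM), and the classic CAR target Cyp2b10 had 5 and 0 counts. The Cyp2c29 gene, also of the liver, had no count in either library. Cyp3a16, a form of the fetal and young mouse liver, had 0.80 TPM in pup 2 against 0.41 TPM in pup 1, with a log2 interval of -0.14 to 1.34 that includes 0. The receptor genes Nr1i2 (PXR), at 0.39 and 0.86 TPM, and Nr1i3 (CAR), at 1.26 and 1.66 TPM in pup 2 and pup 1, were also low. At a mean count of at least 100, Cyp4f14 of the liver class went the other way, with 2.78 TPM in pup 2 against 0.94 TPM in pup 1 (log2 ratio 1.17, interval 0.79 to 1.57). It encodes an omega-hydroxylase of leukotrienes and fatty acids.

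Omega-hydroxylases of the Cyp4f subfamily were the largest subfamily by sum, with 54.6 TPM in pup 2 against 33.5 TPM in pup 1 over 9 genes. In pup 1 the Cyp4a and Cyp2d subfamilies were nearly level with it, at 33.08 and 33.06 TPM. Cyp4f13 (ENSMUSG00000024055.10, chromosome 17, 32924688 to 32947402) stood at 25.95 TPM in pup 2 against 12.7 TPM in pup 1 (log2 ratio 0.68, interval 0.55 to 0.81). Cyp4f16, in the same gene cluster, stood at 19.2 TPM in pup 2 against 14.1 TPM in pup 1, and its log2 ratio of -0.10 had an interval of -0.22 to 0.03 that includes 0. Cyp4f18, which inactivates leukotriene B in neutrophils, stood at 3.40 TPM in pup 2 against 1.98 TPM in pup 1 while its counts were 104 and 124. The effective length given for the gene was 932 bases in pup 2 and 1556 in pup 1, and its TPM and counts differed in direction. Its leading transcript, ENSMUST00000003574.4, held 40.2% of the gene's TPM in pup 2 and 95.7% in pup 1. Cyp4v3, a fatty acid hydroxylase of many organs, stood at 7.82 TPM in pup 2 against 3.40 TPM in pup 1 (log2 ratio 0.81, interval 0.66 to 0.97).

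Cyp20a1, Cyp2d22, Cyp2j6, Cyp2j9 and Cyp1b1 differed by less than 2-fold between the pups. Cyp20a1 (ENSMUSG00000049439.9, chromosome 1, 60343323 to 60388060), an orphan enzyme without a settled substrate, stood at 20.7 TPM in pup 2 against 14.9 TPM in pup 1. Its log2 ratio of 0.11 had an interval of -0.00 to 0.22 that includes 0, with a lower bound of -0.00267. Cyp2d22 stood at 19.8 TPM in pup 2 against 12.7 TPM in pup 1 (log2 ratio 0.26), and the fatty acid oxidiser Cyp2j6 at 10.96 and 6.94 TPM (0.27). The related Cyp2j9 stood at 4.52 TPM in pup 2 against 6.04 TPM in pup 1 (-0.79). Cyp1b1 (ENSMUSG00000024087.3, chromosome 17, 79701537 to 79715061), an enzyme of oestrogen, retinoid and pollutant oxidation found mainly outside the liver, had almost equal TPM, 10.6 in pup 2 and 10.7 in pup 1 (mean 10.7 ± 0.0495, SD, n = 2). By scaled counts it was lower in pup 2 (log2 ratio -0.39), which shows the offset between the measures. Its relatives Cyp1a1 and Cyp1a2, which the aryl hydrocarbon receptor induces, were below 1 TPM in both pups, with 3 and 0 counts for Cyp1a1 in pup 2 and pup 1. The receptor gene Ahr stood at 2.70 TPM in pup 2 against 3.48 TPM in pup 1.

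Among sterol and bile acid enzymes, Cyp39a1, Cyp7b1 and Cyp27a1 had the highest levels, and Cyp7a1 had the lowest. Cyp39a1 (ENSMUSG00000023963.9, chromosome 17, 43667425 to 43751431), an oxysterol hydroxylase known from liver, stood at 13.9 TPM in pup 2 against 13.3 TPM in pup 1 (13.6 ± 0.445, SD, n = 2). By scaled counts it was lower in pup 2 (log2 ratio -0.32, interval -0.42 to -0.21), the opposite direction to its TPM. Cyp7b1 (ENSMUSG00000039519.6, chromosome 3, 18071950 to 18243338), which hydroxylates oxysterols and DHEA, stood at 10.49 TPM in pup 2 against 14.8 TPM in pup 1 (log2 ratio -0.88, interval -1.01 to -0.74). Cyp27a1, the mitochondrial sterol hydroxylase, stood at 6.57 TPM in pup 2 against 9.50 TPM in pup 1, with the same ratio of -0.88. Cyp7a1, the rate-limiting enzyme of bile acid synthesis in the liver, had 0.21 TPM in pup 2 against 0.50 TPM in pup 1 (28 and 82 counts). Cyp8b1, the enzyme of cholic acid, had 2.42 TPM in pup 2 against 2.77 TPM in pup 1, and the neuronal cholesterol hydroxylase Cyp46a1 had 1.77 and 1.87 TPM.

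The order of these levels in pup 2 was Cyp39a1, Cyp7b1, Cyp27a1, Cyp8b1, Cyp46a1, Cyp7a1, and in pup 1 Cyp7b1 stood above Cyp39a1. The means of Cyp39a1 and Cyp7b1 (13.6 ± 0.445 and 12.6 ± 3.01 TPM, SD, n = 2) differed by less than the spread between the pups. Of 9 other genes of bile acid synthesis and transport, 7 were detected in pup 2 and 8 in pup 1. By ratio 3 of these 9 were higher and 6 lower in pup 2 (median log2 ratio -0.68), where 49.9% of all genes were lower. Those led by level were Scp2 (388 TPM in pup 2, 322 TPM in pup 1), a sterol carrier and thiolase, Akr1d1 (128 and 24.4 TPM), a steroid reductase, and Hsd3b7 (39.4 and 25.3 TPM), an oxysterol dehydrogenase. Of the receptor genes that control this route, the bile acid receptor Nr1h4 (18.4 TPM in pup 2, 6.38 TPM in pup 1) and its target Nr0b2 (24.3 and 7.63 TPM) had log2 ratios of 1.15 and 1.29. Hnf4a, another of them, stood at 0.57 TPM in pup 2 against 1.17 TPM in pup 1 (-1.43).

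Enzymes of vitamin D and retinoic acid were low. The vitamin D hydroxylases Cyp2r1 (2.06 TPM in pup 2, 1.88 TPM in pup 1) and Cyp27b1 (0.23 and 0.17 TPM) activate the vitamin. Cyp24a1, which inactivates it, had 8 counts in pup 2 and 0 in pup 1, while the receptor gene Vdr stood at 1.23 and 0.16 TPM. Among the enzymes that clear retinoic acid, Cyp26b1 (ENSMUSG00000063415.8, chromosome 6, 84571414 to 84593908) led with 1.25 TPM in pup 2 against 0.59 TPM in pup 1 (log2 ratio 0.69, interval 0.34 to 1.04). Cyp26a1 had 2 counts in pup 2 and 9 in pup 1, and Cyp26c1 had 0 and 3. Other genes of retinoid metabolism, uptake and binding stood higher. All 9 were detected in each pup, among them Dhrs3 (83.7 TPM in pup 2, 89.4 TPM in pup 1) and Aldh1a2 (33.8 and 16.3 TPM). Of these 9 genes 3 were higher and 6 lower in pup 2 (median log2 ratio -0.60), where 49.9% of all genes were lower.

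The brain-type enzyme Cyp4x1 (ENSMUSG00000047155.9, chromosome 4, 115106323 to 115134281), which oxidises the endocannabinoid anandamide, had the lowest ratio of the 53 genes. It stood at 0.22 TPM in pup 2 against 1.16 TPM in pup 1, with 30 and 192 counts, a log2 ratio of -2.74 and an interval of -3.37 to -2.20. All 3 neuron genes were lower in pup 2 too, between -2.24 and -2.02, led by Stmn2 (113 TPM in pup 2, 366 TPM in pup 1). Cyp46a1, also of the brain, had a log2 ratio of -0.46. The part of neuronal RNA in the level of Cyp4x1 was not tested. Besides Cyp2e1 and Cyp4x1, the third gene over 2-fold lower in pup 2 at a mean count of at least 100 was Cyp4a31, with 2.04 TPM in pup 2 against 3.18 TPM in pup 1 (log2 ratio -1.06). In all, 5 of 36 genes with that count were over 2-fold apart, against a background of 9.13%. With Cyp2f2 and Cyp4f14, 2 of the 36 were higher in pup 2 (background 2.78%) and 3 lower (background 6.36%). By sign alone 10 of the 36 were higher (background 51.1%) and 26 lower (background 48.9%). The other genes over 2-fold apart had fewer counts: Cyp2c67 was higher in pup 2, and Cyp7a1, Cyp1a2, Cyp2c54, Cyp4f15 and Cyp2a12 were lower, between -1.67 and -1.05.

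The genes of partners that P450s need were mostly higher in pup 2. Much of the electron donor sum came from Fdx1 and Fdxr, which serve mitochondrial P450s, such as Cyp27a1 in this group. All 9 genes of electron donors and their helpers were detected in each pup (3730 TPM summed in pup 2, 1955 TPM in pup 1), and 7 of 9 had a ratio above 0, against 50.1% of all genes. Fdx1, the ferredoxin of mitochondrial P450s, stood at 1843 TPM in pup 2 against 842 TPM in pup 1 (log2 ratio 0.74), Pgrmc1, a haem-binding helper, at 531 and 324 TPM (0.33), and Cyb5a, a cytochrome b5, at 382 and 365 TPM (-0.34). Chosen for their values, the reductase genes Fdxr for mitochondria (491 TPM in pup 2, 130 TPM in pup 1) and Por for the endoplasmic reticulum (112 and 60.6 TPM) had log2 ratios of 1.52 and 0.45. Of 9 genes of haem synthesis 8 were higher in pup 2 (median 0.46), among them Alas1 (208 TPM in pup 2, 61.0 TPM in pup 1), the rate-limiting enzyme outside red cells, and Urod (127 and 93.8 TPM). These partners also serve the steroidogenic P450s, whose 5 genes with enough counts were all higher in pup 2 (median 1.18). Of 15 receptor genes that control P450 genes, 11 were detected in both pups, while 6 were higher and 9 lower in pup 2, led by Nr0b2, Rara (16.6 and 15.3 TPM in pup 2 and pup 1) and Arnt (15.0 and 10.4 TPM).

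Many P450 genes lie in tandem clusters, and within a cluster detected and silent genes were neighbours. With neighbours joined up to 1 Mb apart, 7 clusters of at least 3 genes held 64 of the 87 genes. The Cyp2c cluster (mm10 chromosome 19, 39007019 to 40187333) had 14 genes, of which 3 were detected in both pups and 4 had no count. Its level came from the adjacent Cyp2c68, Cyp2c40 and Cyp2c69, while the first 6 genes of the row stayed at or below 0.09 TPM. The cluster of Cyp2a, Cyp2b, Cyp2f, Cyp2g, Cyp2s and Cyp2t genes (chromosome 7, 25802475 to 27158668) had 13 genes, of which only Cyp2s1 and Cyp2f2, the first and the second-last, were detected in both pups. The 8 Cyp2d genes (chromosome 15, 82370527 to 82794294) divided evenly into 4 detected and 4 without a count. The Cyp4a, Cyp4b and Cyp4x cluster (chromosome 4, 115106323 to 115647723) had the highest sum, 57.3 TPM in pup 2 against 51.1 TPM in pup 1, and the Cyp4f cluster (chromosome 17, 32452723 to 32947402) had 51.2 and 31.5 TPM.

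**Figure D4:**
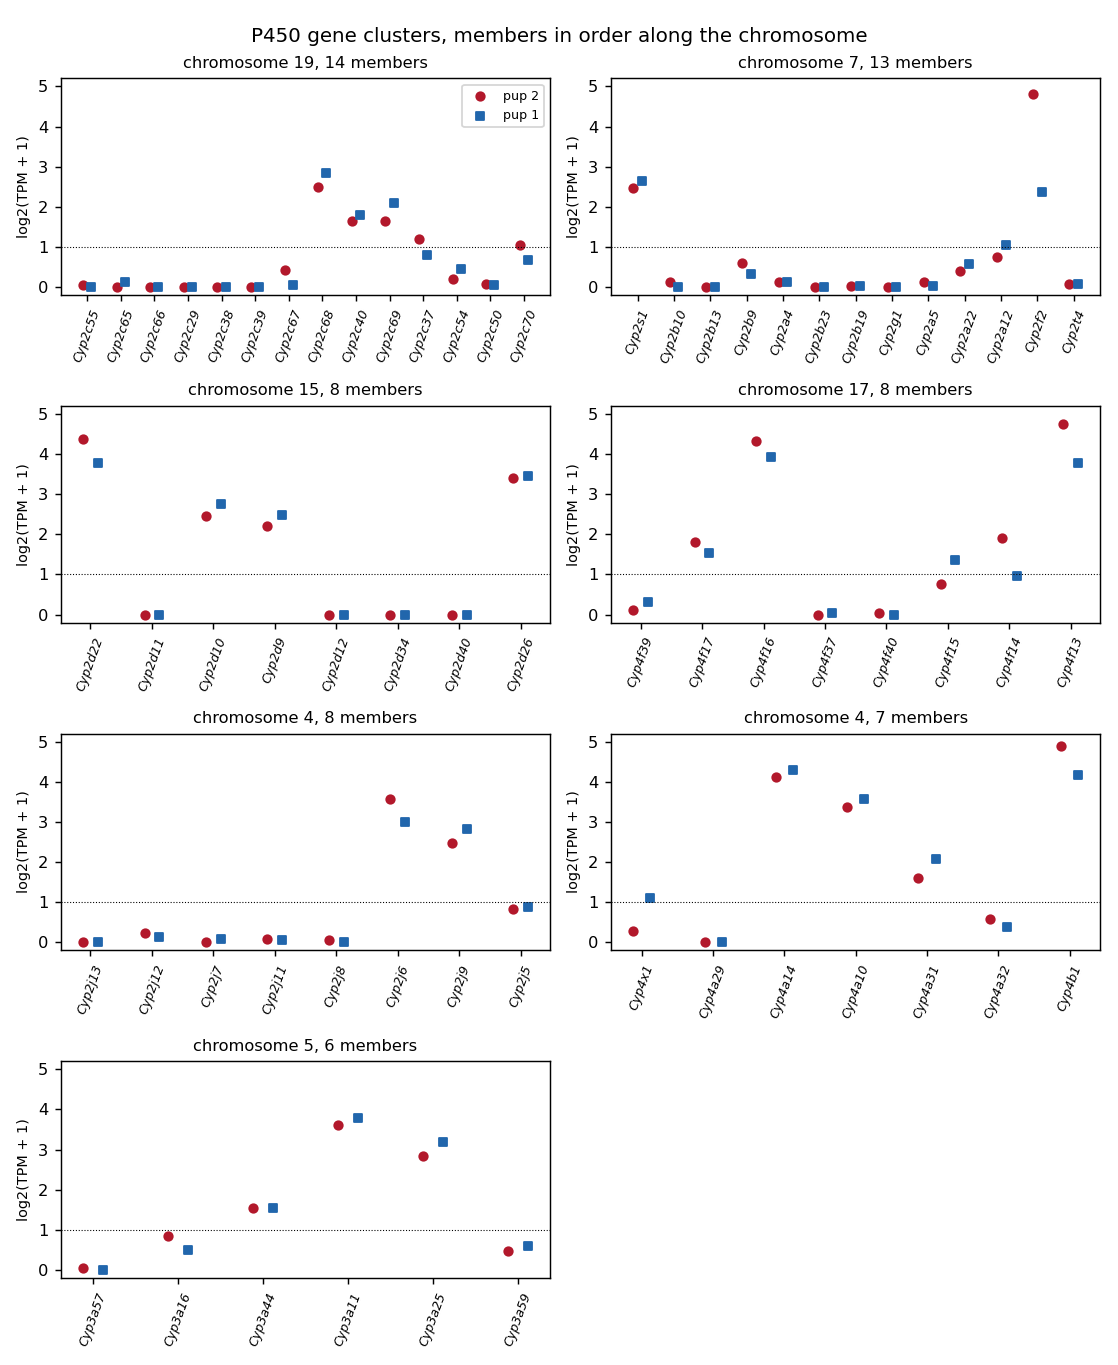
Level of each gene in the 7 P450 clusters as log2(TPM + 1), with genes in order along the chromosome, pup 2 as circles and pup 1 as squares, and a dotted line at 1 TPM. Detected and silent genes lie side by side within clusters, and in the chromosome 7 cluster Cyp2f2 stands alone above 10 TPM, in pup 2.

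Paralogs of this family share sequence, so their reads can be split uncertainly. Of all stretches of 50 bases in the longest transcript of each gene, 18 genes shared over 25% with another gene, and 23 shared none. Cyp2c40 shared 72.1%, Cyp2c69 54.8%, Cyp2c67 52.8% and Cyp2c68 43.3%, each with a neighbour in the cluster as main partner, and their single levels are uncertain to that extent. Cyp2f2, Cyp1b1, Cyp39a1, Cyp7b1 and Cyp3a11 shared none, and Cyp4x1 3.50%. Genes sharing at most 10% held 69.4% of the group's TPM in pup 2 and 66.9% in pup 1. Of the over 2-fold ratios, that of Cyp2c67 (18 counts in pup 2 and 3 in pup 1; log2 ratio 2.32, interval 0.72 to 4.91) thus rests on few and partly shared reads.

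Isoforms were examined for the 4 genes with the highest mean TPM. A single transcript held 93.2% ± 1.31 of the TPM of Cyp4b1 (ENSMUST00000102707.5; SD, n = 2), 94.0% ± 4.32 of Cyp4a14 (ENSMUST00000030487.2) and 78.6% ± 5.85 of Cyp4f13 (ENSMUST00000075253.8). Cyp20a1 was split between ENSMUST00000060608.8, with 71.0% in pup 2 and 54.4% in pup 1, and ENSMUST00000148443.2, with 29.0% and 45.0%. The leading transcript of each of these genes was the same in both pups.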

How the data were processed

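Total RNA-seq tables of 2 libraries, 1 per pup and labelled as 1 group, were used. Per the file headers the authors deposited, for each gene, an expected count (an estimated count that need not be whole) with its posterior mean, TPM and FPKM, the posterior SD and TPM interval of the quantifier, and, per transcript, the percent of the gene's TPM. Per the deposited text files the build is mm10 with GENCODE M4. The sources used here do not give the aligner, quantifier or strand handling.

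Symbols and coordinates came from GENCODE M21 by Ensembl identifier (42462 of 43346 genes matched). Numbered rows (26248; 9.59e-05% of counts in pup 2, 2.65e-05% in pup 1) and spike-in rows (97; 0.00250% and 0.0138%) were left out. Expected counts were rounded, scaled by TMM in edgeR 4.0.16 (R 4.3.3), and given 0.5 before log2 ratios where the mean count reached 10. Intervals are exact binomial 95% intervals and cover counting error only, since reads are not independent molecules. Printed folds omit the 0.5. No test was run between the pups. Ratios were checked on simulated counts.

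The genes and lists were chosen with earlier results of these data known. Named are the 20 highest genes by mean TPM, all of families 7, 8, 24, 26, 27, 39 and 46, those over 2-fold apart at a mean count of at least 100, the highest of each family and organ class, and the 3 highest of each list, of which some are not reported here. Others are named where a count of few genes, a cluster or a receptor's place made them stand out after their values were seen. Shared 50-base stretches used M21 transcripts on the same strand. Alternative size factors came from DESeq2 1.42.0. Python 3.11.15 with scipy 1.17.1, pandas 2.3.3 and numpy 2.4.6 served the remaining steps.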

Additional observations from a re-analysis of the deposited data

Results flagged for a closer look

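Signal above the limit of a count of 0 was seen in P450-named rows outside the symbol rule. Among them the pseudogene Cyp21a2-ps stood at 179 TPM in pup 2 against 41.85 TPM in pup 1 (7551 and 2168 counts). Of the 50-base stretches of the steroidogenic Cyp21a1, 23.7% also occur in it. The pseudogene Cyp4b1-ps2 stood at 3.82 TPM in pup 2 against 4.46 TPM in pup 1 (29 and 42 counts), and 5.26% of the 50-base stretches of Cyp4b1 also occur in it. Cyp3a41a, whose symbol ends in a letter, stood at 3.54 TPM in pup 2 against 5.05 TPM in pup 1 (226 and 397 counts). It shares 93.7% of its stretches with Cyp3a41b, which is listed at 0 TPM in both pups, so the levels of this pair cannot be told apart.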

How the results depend on the processing

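Under the alternatives tried, the count of 34 genes detected in both pups ranged from 28 (minimum 2 TPM) to 42 (minimum 0.5 TPM), and from 37 to 38 with either pup left out. The summed TPM was 265 in FPKM and 433 when TPM was rescaled over nuclear protein-coding genes, and 277 to 324 with either pup left out. The liver share was 32.2% to 44.2% with either pup left out. The count of 11 genes over 2-fold apart became 49 by spike-in scaling, 25 with no minimum count and 5 at a mean count of at least 100. The median log2 ratio of -0.46 became 2.11 by spike-in scaling, -0.0793 by TPM and -0.0852 with no minimum count (the value of a gene with 0 counts in both libraries). Under spike-in scaling the sign turned for Cyp1a2 (0.96), Cyp2a12 (1.52), Cyp2c54 (0.90), Cyp2e1 (1.29), Cyp4a31 (1.51), Cyp4f15 (1.46) and Cyp7a1 (0.95), and Cyp4x1 stood at -0.17. These shifts follow from the factor itself, which moves every gene by 2.57. DESeq2 size factors, a pseudocount of 2 and posterior mean counts left 11 genes over 2-fold apart. No paired analysis was possible because both libraries form 1 group. With 1 library per pup, depth limits only the low genes, and the spread over animals is unknown.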

Other observations

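P450s outside the symbol rule with other names were also expressed. Ptgis, the prostacyclin synthase of vessels, stood at 26.6 TPM in pup 2 against 36.7 TPM in pup 1, Cyp51, an enzyme of cholesterol synthesis, at 19.8 and 19.1 TPM, and Tbxas1, the thromboxane synthase, at 3.87 and 3.33 TPM. By scaled counts all 3 were lower in pup 2 (log2 ratios -0.85, -0.34 and -0.13), where 49.9% of all genes were.

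Enzymes that act after P450s were led by Gstp1 (394 TPM in pup 2, 290 TPM in pup 1) and Gstm1 (155 and 102 TPM), both glutathione transferases, and the epoxide hydrolase Ephx1 (55.8 and 37.4 TPM). Of 12 such genes 10 reached 1 TPM in both pups. Of 11 with a mean count of at least 10, 8 were lower in pup 2 (median log2 ratio -0.47), where 49.9% of all genes were. Gsta1, named after its values were seen, had 10 counts in pup 2 and 111 in pup 1, and its log2 ratio of -3.49 was below that of every P450 gene with a mean count of at least 10.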
